A study of Mus musculus with 6 samples.

Results

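The 8 genes described here make or use alpha-ketoglutarate or clear 2-hydroxyglutarate: the isocitrate dehydrogenases *Idh1*, *Idh2*, *Idh3a*, *Idh3b* and *Idh3g*, the subunits *Ogdh* and *Dlst* of the alpha-ketoglutarate dehydrogenase complex, and the D-2-hydroxyglutarate dehydrogenase *D2hgdh*. They were chosen by name for this role and found on the array through the transcript accessions of their probes, which gave 13 probes for these 8 of the 22907 named genes. RNA was compared between WT cells, which are OS3 cells carrying an empty vector, and IG27 cells, which are OS3 cells carrying a pcDNA3.1(+) plasmid with *H3f3a* mutated to K27M, the histone change found in diffuse midline glioma. OS3 is a glial cell line from the brain of newborn C3H/HeN mice, labeled as male, immortalized with SV40. Both groups had been transfected, selected with drug and grown for 2 days in serum with insulin and added glucose. IG27 cells were established as clones after drug selection, and the number of clones behind the arrays is not given in the sources used here. Each group had 3 arrays, and nothing in the labels ties an array to a separate transfection, so p-values measure the spread between cultures or RNA samples of 2 established lines, which may be technical. A difference between these lines can come from the histone or from the choice of clone, and the design cannot tell these apart.

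Isocitrate dehydrogenases convert isocitrate to alpha-ketoglutarate. IDH1 in the cytosol and peroxisome and IDH2 in mitochondria use NADP, run in either direction and yield NADPH, whereas IDH3 is the NAD-dependent enzyme of the TCA cycle, built from alpha (catalytic), beta and gamma subunits encoded by *Idh3a*, *Idh3b* and *Idh3g*. The alpha-ketoglutarate dehydrogenase complex then turns alpha-ketoglutarate into succinyl-CoA, with OGDH as its E1 and DLST as its E2 subunit. Alpha-ketoglutarate is also the co-substrate of dioxygenases that demethylate histones and DNA or hydroxylate HIF and collagen. In glioma, point mutations of IDH1 or IDH2 give an enzyme that makes D-2-hydroxyglutarate, which D2HGDH oxidizes back to alpha-ketoglutarate. An expression array measures the amount of RNA and reads neither these mutations nor enzyme activity.

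Levels are normalized log2 intensities, the log2 processed signal minus the 75th percentile of the array, so that 0 is the level of the probe at that percentile and a difference of 1 is a doubling. Levels of different probes depend on the probe and were not set against each other. A gene was tested where, in either group, each complete array flagged its probe as well above background, and called where the adjusted p of limma was under 0.05. Between 58.8% and 61.2% of the probes were well above background on the complete arrays. In all, 70.5% of the 14894 tested genes were called, 30.5% as higher and 40% as lower in IG27 cells, and the median difference of all genes was -0.07. Scaling each array on its median instead moved this median to -0.31 and the share of higher genes among those called from 43.3% to 27.5%. Of 13 glial markers, 11 were well above background on all complete WT arrays and 12 on all complete IG27 arrays, with *Gfap*, *Olig1* and *Sox10* among them in both and *Slc1a3* below in WT cells. Of the 13, 6 were called higher in IG27 cells, among them *S100b* by 4.93 and *Pdgfra* by 2.36, and 4 lower, among them *Gfap* by 1.07. The summed level of the glial markers, in multiples of the 75th percentile, was 344 to 361 in WT and 276 to 289 in IG27 arrays, that of the 5 fibroblast and pericyte markers 126 to 129 and 64.3 to 69.6, and that of the 5 endothelial markers 0.172 to 0.194 and 2.60 to 2.67. The last was carried by *Kdr*, and of the other endothelial markers *Pecam1* alone was well above background. Summed levels were 4.59 to 5.91 and 4.56 to 5.24 for 5 neuron markers, and 12.003 to 12.5 and 12.3 to 12.8 for 6 microglia and leukocyte markers. Of the neuron markers 1 was well above background on all complete WT arrays and 2 on all complete IG27 arrays. These were *Snap25* in both groups and *Slc17a7* in IG27 cells, while *Rbfox3*, *Gad1* and *Syt1* were not. Of the microglia and leukocyte markers 3 and 4 were so. These were *Csf1r*, *Itgam* and *P2ry12* in both groups and *Aif1* in IG27 cells, while *Ptprc* and *Cx3cr1* were not. Their part in the results was not tested. The brightest probe of *H3f3a* was 0.26 lower in IG27 cells (SE 0.08, adjusted p = 0.0237). Whether it reads the RNA of the plasmid was not tested.

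Of the 8 genes, 7 were tested. Both NADP-dependent isocitrate dehydrogenases were higher in IG27 cells, *Idh2* by 0.79 and *Idh1* by 0.25, whereas all 3 subunits of the NAD-dependent enzyme were lower, by 1.10 for *Idh3a*, 0.74 for *Idh3b* and 0.47 for *Idh3g*. *Dlst* was lower by 0.56, *Ogdh* was not called, and *D2hgdh* was not well above background in WT cells. The 6 calls among 7 tested genes (2 higher, 4 lower) stand beside the 70.5% of all genes that were called, so that a call as such does not set these genes apart. The 3 WT and 3 IG27 values did not overlap in 6 of the 7, 2 with IG27 higher and 4 with IG27 lower, beside 75.7% of all genes, 33.4% with IG27 higher and 42.4% with IG27 lower. The median difference of the 7 was -0.47. In RNA of whole cultures, a lower level in each cell and fewer cells with the RNA cannot be told apart.

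**Figure D1:**
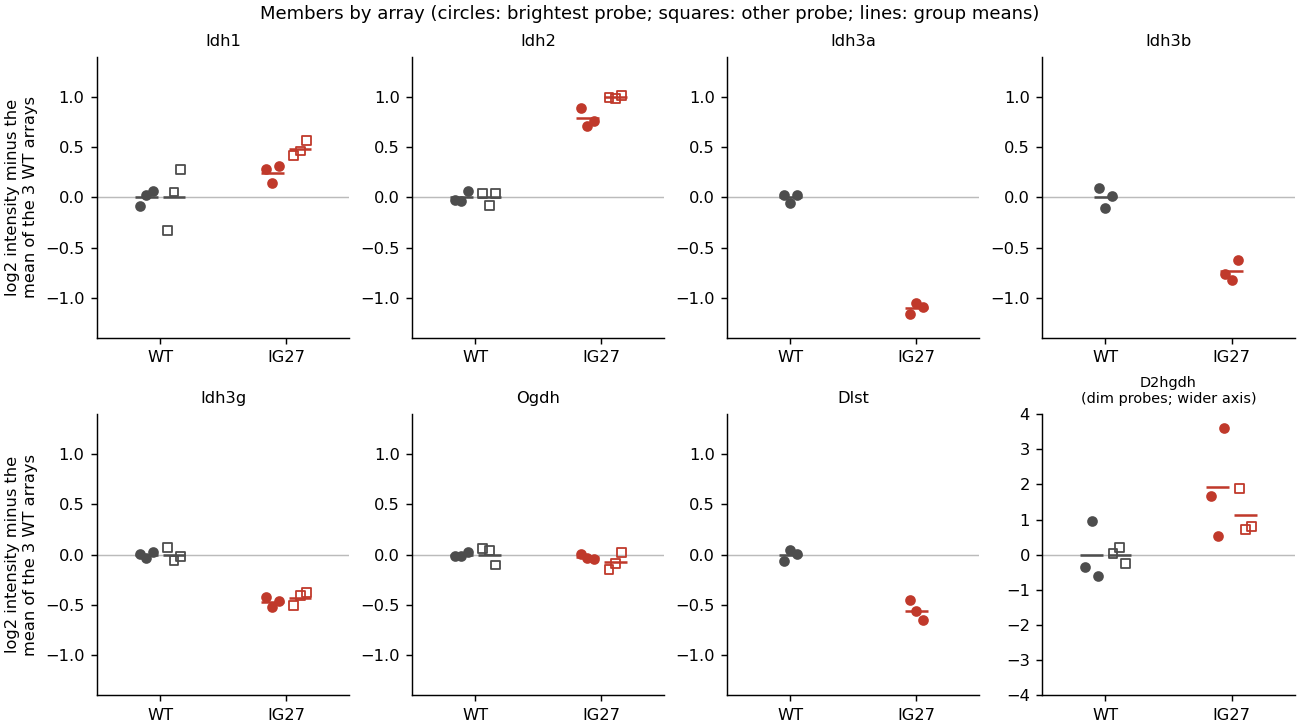
Normalized log2 intensity of every probe of the 8 genes on each of the 6 arrays, minus the mean of the 3 WT arrays of the same probe. Filled circles are the brightest probe, open squares the other probe where there is one, and lines are group means; *Idh2* lies above and *Idh3a*, *Idh3b*, *Idh3g* and *Dlst* below WT on every IG27 array, and *D2hgdh*, whose axis is wider, was not well above background on any WT array.

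*Idh2*, the mitochondrial NADP-dependent enzyme, read 5.18, 5.16 and 5.26 on the WT arrays and 6.09, 5.91 and 5.96 on the IG27 arrays, in the order of the replicate numbers, as for all values by array. All IG27 arrays lay above all WT arrays. The difference was 0.79 (SE 0.07, n = 3 per group, adjusted p = 7.73e-05, limma), a 1.73-fold higher signal. Its other probe read 1.78, 1.66 and 1.78 in WT and 2.74, 2.73 and 2.76 in IG27 arrays, a difference of 1.003 (SE 0.05, adjusted p = 1.2e-05 over all probes). Both probes thus placed *Idh2* higher in IG27 cells. The gene was called higher under all 19 alternative settings, with values of 0.47 to 0.90.

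*Idh1*, the cytosolic NADP-dependent enzyme, read -0.66, -0.56 and -0.52 in WT arrays and -0.30, -0.44 and -0.27 in IG27 arrays. The groups did not overlap, but the gap between the highest WT and the lowest IG27 array was small beside that of *Idh2*. The difference was 0.25 (SE 0.07, adjusted p = 0.0186), a 1.19-fold higher signal. A dimmer probe of another transcript record of *Idh1* read -4.82, -4.43 and -4.20 in WT and -4.06, -4.02 and -3.91 in IG27 arrays, a difference of 0.48 (SE 0.16, adjusted p = 0.0309 over all probes), which with quantile normalization was 0.23 (adjusted p = 0.254). The call of *Idh1* was lost without WT replicate 1 (0.21, adjusted p = 0.0560), without IG27 replicate 1 (0.23, adjusted p = 0.0565) and without IG27 replicate 3 (0.21, adjusted p = 0.0596). It was also lost when each array was scaled on its median (0.01, adjusted p = 0.952), with slide row as a block (0.22, adjusted p = 0.123) and with normexp on the median signal of the 5 complete arrays, which changed background correction, signal and arrays together (0.18, adjusted p = 0.0655). Relative to the median of all genes *Idh1* stood at 0.31 under both the 75th percentile and the median of the array. Both scalings shift all genes of an array alike, so this value could hardly differ between them. With quantile normalization it was 0.27.

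*Idh3a*, which encodes the catalytic alpha subunit of IDH3, read 4.19, 4.11 and 4.19 in WT arrays and 3.00, 3.11 and 3.07 in IG27 arrays. The lowest WT array stood at 4.11 and the highest IG27 array at 3.11, so the groups did not overlap. The difference was -1.10 (SE 0.05, adjusted p = 7.31e-06), so that WT cells had a 2.15-fold higher signal. *Idh3b*, the beta subunit, read 3.47, 3.27 and 3.40 in WT and 2.62, 2.56 and 2.76 in IG27 arrays, a difference of -0.74 (SE 0.08, adjusted p = 2.51e-04). *Idh3g*, the gamma subunit, read 5.74, 5.70 and 5.76 in WT and 5.31, 5.21 and 5.27 in IG27 arrays, a difference of -0.47 (SE 0.05, adjusted p = 2.09e-04). Its other probe read 4.75, 4.62 and 4.66 in WT and 4.17, 4.27 and 4.30 in IG27 arrays, a difference of -0.43 (SE 0.06, adjusted p = 0.00103 over all probes). All 3 subunits were thus lower on every IG27 array than on any WT array, and *Idh3a* and *Idh3b* were each read by 1 probe.

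The promoters of *Idh2*, *Idh3b* and *Idh3g* are shown because these genes moved in opposite directions while encoding enzymes of the same reaction. The sequences are from RefSeq on GRCm38.p6, on the minus strand, 5′ to 3′ and ending at the base before the gene's start. For *Idh2* (chr7:80115351-80115600) and *Idh3b* (chr2:130284452-130284701) they hold the 250 bases before the start. For *Idh3g* (chrX:73786898-73787022) they hold the 125 bases between its start and that of *Ssr4*, a translocon-associated protein gene that is read in the opposite direction. Capitals mark matches, on either strand, to 1 of 4 short motifs chosen after the sequences had been read. These were the GC box, which Sp factors bind and whose letters are GGGCGG, and the CCAAT box, which is its letters and is bound by NF-Y. The others were the core that ETS factors bind in many housekeeping promoters, CCGGAAG, and the core of the hypoxia response element to which HIF binds, ACGTG.
Idh2: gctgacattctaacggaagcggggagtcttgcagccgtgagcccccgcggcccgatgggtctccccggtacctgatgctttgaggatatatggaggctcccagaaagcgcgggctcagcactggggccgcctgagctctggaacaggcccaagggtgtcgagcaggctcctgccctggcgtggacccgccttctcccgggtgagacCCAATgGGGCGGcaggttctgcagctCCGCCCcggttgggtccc
Idh3b: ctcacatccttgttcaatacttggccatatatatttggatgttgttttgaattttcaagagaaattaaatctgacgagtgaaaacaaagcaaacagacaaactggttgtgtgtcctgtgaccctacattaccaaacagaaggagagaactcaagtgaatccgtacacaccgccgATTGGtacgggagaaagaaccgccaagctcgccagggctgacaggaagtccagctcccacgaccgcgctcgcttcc
Idh3g: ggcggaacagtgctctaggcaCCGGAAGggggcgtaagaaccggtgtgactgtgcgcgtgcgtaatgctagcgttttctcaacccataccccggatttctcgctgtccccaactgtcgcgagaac
The *Idh2* stretch held 1 CCAAT box and 2 GC boxes, that of *Idh3b* 1 CCAAT box and that of *Idh3g* 1 ETS core, and none of the printed stretches held the hypoxia core. The 250 bases before *Idh3g* hold 1 hypoxia core in the part that is not printed, which lies beyond the start of *Ssr4*. No marked match overlapped another. Over the 250 bases before the start of all 32851 promoters, 32.7% held a GC box, 33.8% a CCAAT box, 6.91% the ETS core and 16.6% the hypoxia core. The 250 bases before *Idh2* had a GC content of 67.2% and 17 CpG, those before *Idh3b* 46.8% and 11, and those before *Idh3g* 62.8% and 24. The medians over all promoters were 52.4% and 6. *Ssr4* was lower in IG27 cells by 0.39 (adjusted p = 0.0134, limma) and *Idh3g* by 0.47. The tested genes of chromosome X had a median of -0.59, and those within 2 Mb of *Idh3g* one of -0.91. Joint regulation of *Idh3g* and *Ssr4* was not tested. Promoter entries matched 7 of the 8 genes, all but *Idh3a*.

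*Ogdh*, the E1 subunit that decarboxylates alpha-ketoglutarate, read 4.67, 4.67 and 4.72 in WT arrays and 4.69, 4.66 and 4.64 in IG27 arrays. The groups overlapped, and the difference of -0.03 (SE 0.04, adjusted p = 0.631) had a 95% confidence interval of -0.13 to 0.08. Its other probe gave -0.07 (SE 0.07, adjusted p = 0.398 over all probes). The sign of this small value depended on the scaling: it was 0.08 (adjusted p = 0.117) with quantile normalization, and with each array scaled on its median it was -0.27 (adjusted p = 0.00904), which is 0.04 above the median of all genes under that scaling. *Dlst*, the E2 subunit, read 5.24, 5.35 and 5.31 in WT and 4.85, 4.73 and 4.65 in IG27 arrays. Every IG27 array was lower than every WT array, and the difference was -0.56 (SE 0.07, adjusted p = 4.45e-04). *Dlst* was called lower under all 19 alternatives, with values of -0.80 to -0.45, but it was read by 1 probe. Dihydrolipoamide dehydrogenase, *Dld*, the E3 subunit that this complex shares with other 2-oxoacid dehydrogenases, was lower by 0.26 (SE 0.06, adjusted p = 0.00751), and *Mrps36*, which tethers E3 to the complex, was lower by 0.23 (SE 0.07, adjusted p = 0.0309). Of the 4 measured genes of the complex 3 were called lower, beside 40% of all genes, and *Ogdh* was not called. The call of *Mrps36* was lost without WT replicate 1 (adjusted p = 0.0711), WT replicate 3 (0.0925), IG27 replicate 2 (0.0797) or IG27 replicate 3 (0.0605). It was also lost with normexp (-0.10), without the filter on dim probes (-0.23) and relative to the chromosome median (0.01). Both *Dld* and *Mrps36* lost their calls with slide row as a block (-0.26 and -0.16). They also lost them with quantile normalization (limma, -0.09, adjusted p = 0.247, and -0.07, adjusted p = 0.314), where *Dlst* alone of the 4 was called lower. The number of lower genes in the list that holds *Dld* and *Mrps36* was 3 here, 1 with quantile normalization and 0 with slide row as a block.

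*D2hgdh*, which clears D-2-hydroxyglutarate, was read by 2 probes. The brighter read -8.06, -6.76 and -8.32 in WT arrays and -6.04, -7.20 and -4.11 in IG27 arrays. It was not well above background on any WT array and was so on 1 of the 2 complete IG27 arrays, replicate 3. The other probe read -7.98, -7.81 and -8.26 in WT and -6.14, -7.31 and -7.21 in IG27 arrays and was not well above background on any array. The gene was therefore not tested, and no fold is given, since the IG27 mean of the brighter probe, -5.78, lay below the bound for WT cells, -5.77, which is the mean over the 3 WT arrays of the lowest signal well above background on each.

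Whether the genes changed unequally was asked within each array, where a shift of the whole array cancels, for 8 pairs. With 3 arrays against 3 the exact permutation test cannot go below p = 0.10, and each of the 8 pairs reached this value (also 0.10 after adjustment over the pairs), so none could pass 0.05. *Idh2* minus *Idh1* was 5.78 ± 0.06 in WT and 6.33 ± 0.08 in IG27 arrays (SD, n = 3), a difference of 0.54. The value within a group depends on the probes of both genes, and the shift between the groups is what was compared. *Idh2* minus *Idh3a* was 1.04 ± 0.04 in WT and 2.93 ± 0.15 in IG27 arrays, a difference of 1.89. For *Idh1* minus *Idh3a* the difference was 1.35. Each of these shifts was larger than the SD of either group. Quantile normalization does not cancel within an array, and with it *Idh2* minus *Idh1* differed by 0.66 and *Idh1* minus *Idh3a* by 1.17. The shifts were smaller when each gene was taken relative to the median level of its chromosome on the same array. They were then 0.26 for *Idh2* minus *Idh1*, 1.02 for *Idh2* minus *Idh3a* and 0.77 for *Idh1* minus *Idh3a*.

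Among the IDH3 subunits, which form one enzyme, *Idh3a* minus *Idh3b* was 0.78 ± 0.06 in WT and 0.42 ± 0.12 in IG27 arrays, a difference of -0.37, and *Idh3a* minus *Idh3g* differed by -0.63. *Idh3b* minus *Idh3g* was -2.35 ± 0.08 and -2.62 ± 0.10, a difference of -0.27. In all 3 pairs the 3 IG27 values lay below the 3 WT values, with the largest difference for *Idh3a* and the smallest for *Idh3g*, although these comparisons could not pass 0.05. *Ogdh* minus *Dlst* was -0.61 ± 0.06 in WT and -0.08 ± 0.07 in IG27 arrays, a difference of 0.53, and *Ogdh* minus *Idh3a* differed by 1.08. Relative to the chromosome medians these 2 differences were 0.71 and 0.73. The pairs with *D2hgdh* could not be compared, because its probes were not well above background.

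The genes lie on different chromosomes, and the differences of whole chromosomes were unequal in these cells. *Idh3a* lies on chromosome 9, whose 813 tested genes had a median difference of -0.64, *Idh3g* on chromosome X (513 genes, median -0.59) and *Idh3b* on chromosome 2 (1149 genes, median -0.34). *Idh2* lies on chromosome 7 (1220 genes, median 0.13), *Idh1* on chromosome 1 (847 genes, median -0.01), *Ogdh* on chromosome 11 (1245 genes, median -0.12) and *Dlst* on chromosome 12 (505 genes, median -0.03). The genes of IDH3 thus lie on 3 of the 4 chromosomes with the lowest medians, the Y chromosome with its 3 tested genes left aside. With 1 line per group, the chromosome-wide differences and the histone cannot be told apart.

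Each gene was also taken relative to the median level of the tested genes of its chromosome on the same array. *Idh3a* then remained lower by 0.55 (SE 0.05, adjusted p = 2.01e-04) and *Idh3b* by 0.26 (SE 0.07, adjusted p = 0.0193). *Idh3g* turned to 0.09 (SE 0.04, adjusted p = 0.104), and 56.7% of the tested genes of chromosome X had a lower difference than *Idh3g* had. *Dlst* kept a difference of -0.54 (SE 0.06, adjusted p = 3.25e-04), and 68 of the 505 genes of its chromosome were lower still. *Idh2* was at 0.47 (SE 0.07, adjusted p = 0.00168), *Idh1* at 0.22 (SE 0.07, adjusted p = 0.0373) and *Ogdh* at 0.17 (SE 0.04, adjusted p = 0.0137). Relative to the median levels of their chromosomes *Idh1*, *Idh2* and *Ogdh* were thus called higher, *Idh3a*, *Idh3b* and *Dlst* lower, and *Idh3g* was not called. This median of levels is not the median of differences given before, and taking away the latter gave other values. These were -0.46 for *Idh3a*, -0.40 for *Idh3b*, 0.12 for *Idh3g* and -0.53 for *Dlst*. They were 0.66 for *Idh2*, 0.25 for *Idh1* and 0.095 for *Ogdh*, and were not tested.

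**Figure D2:**
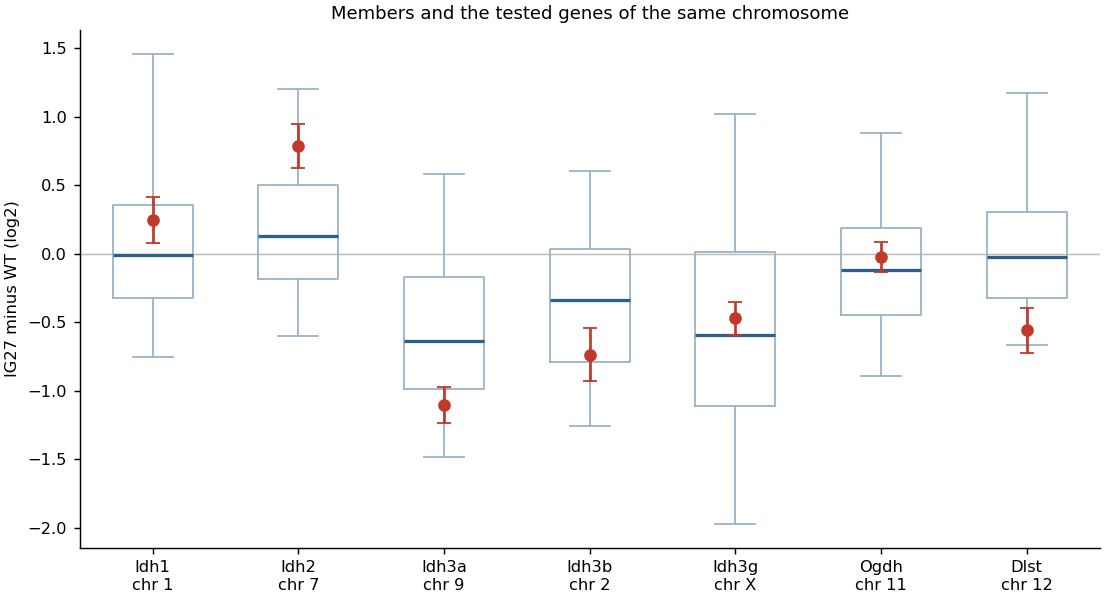
Log2 difference, IG27 minus WT, of the 7 tested genes (red points, bars are 95% confidence intervals of limma, n = 3 per group) over all tested genes of the same chromosome (boxes are quartiles with the median in blue, whiskers the 10th and 90th percentiles). *Idh2* lies above and *Idh3a* and *Dlst* below the box of their chromosome, whereas *Idh3g* lies near the median of chromosome X, -0.59.

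Some neighbors moved with the gene they flank and others opposite to it. *Cib2* and *Acsbg1*, on either side of *Idh3a*, were higher in IG27 cells by 2.09 and 2.24, opposite to *Idh3a*, while the 28 tested genes that start within 2 Mb of *Idh3a*, it left aside, had a median of -0.68. Beside *Idh3b*, *Nop56* was lower by 0.36 and *Ebf4* higher by 0.65, and the 58 genes within 2 Mb had a median of -0.62. *Idh3g* lies between *Srpk3*, lower by 2.04, and *Ssr4*, lower by 0.39, and the 61 genes within 2 Mb had a median of -0.91. *Zfp710*, beside *Idh2*, was called higher by 0.29. The medians within 2 Mb were 0.26 for *Idh2* (55 genes), 0.23 for *Idh1* (23 genes) and -0.06 for *Ogdh* (44 genes). *Prox2*, next to *Dlst*, was lower by 0.94, and the 49 tested genes within 2 Mb of *Dlst* had a median of 0.13. Both neighbors of *Ogdh*, *Tmed4* (-0.49) and *Zmiz2* (-0.60), were called lower.

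The tested genes whose values over the 6 arrays, each centred on its mean, came nearest to those of a member were found by the root mean square difference. *Idh1* was near to *Ccnd3* (0.03) and *Spns1* (0.03), which were higher in IG27 cells by 0.20 and 0.25. *Idh2* was nearest to *BC003965*, *Flnc* and *Commd5*, *Idh3a* to *Syt11*, *Klhdc4* and *Exoc5*, and *Ogdh* to *Clec11a*, *Ddx24* and *Arhgef15*, all at root mean square differences of 0.01 to 0.03. With 6 arrays in 2 groups this measure mostly finds genes with a like difference between the groups.

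Other makers and users of alpha-ketoglutarate, and genes linked to them, were read from 7 lists with 109 genes, of which 101 were tested. Not all of these genes make or use alpha-ketoglutarate. The other NADPH makers among them gave 0 higher and 8 lower genes of 11 tested. Over all 7 lists the calls were 32 higher and 37 lower genes, 31.7% and 36.6%, against 30.5% and 40% of all genes. This split moved with the scaling, to 42 higher and 34 lower with quantile normalization and to 26 higher and 48 lower with the median of the array. With genes required to be well above background on every complete array, it was 31 higher and 38 lower. The median over the lists was 0.05 against -0.07 for all genes.

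**Figure D3:**
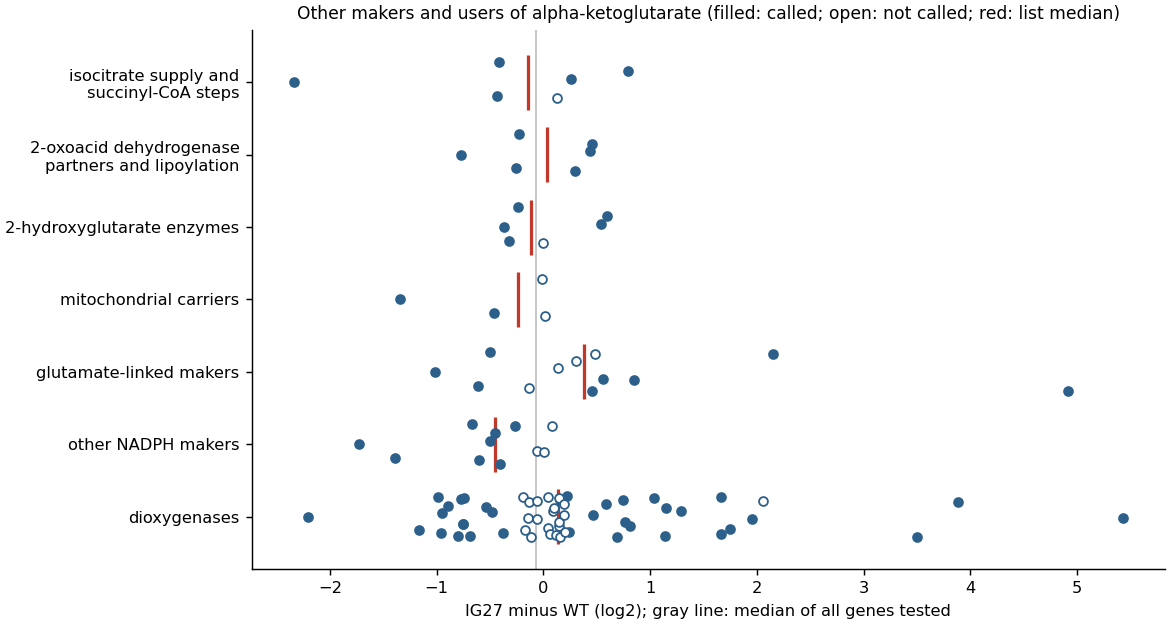
Log2 difference, IG27 minus WT, of each of the 101 tested genes of the 7 lists, with called genes filled and others open; vertical position within a list has no meaning. The red line is the median of the list and the gray line that of all genes tested, -0.07; no gene of the other NADPH makers was called higher, and *Bcat1* and *P3h3* lie farthest to the right.

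Of the 6 genes of isocitrate supply and succinyl-CoA steps, 2 were higher (33.3%) and 3 lower (50%), beside 30.5% and 40% of all genes. Their median was -0.15. Citrate synthase, *Cs*, was lower by 0.42, and its dimmer probe gave -0.20. At succinyl-CoA ligase, *Sucla2*, its ATP-specific beta subunit, read 0.19, 0.10 and 0.18 in WT and 1.05, 0.97 and 0.81 in IG27 arrays, a rise of 0.79 (SE 0.07, adjusted p = 1.39e-04). *Suclg2*, the GTP-specific beta subunit, read 1.86, 1.88 and 2.00 in WT and -0.60, -0.35 and -0.33 in IG27 arrays, a difference of -2.34 (SE 0.09, adjusted p = 2.93e-06), and its 3 probes gave -2.40 to -2.16. The beta subunits that give the ligase its nucleotide thus moved in opposite directions, while *Suclg1*, the alpha subunit common to both forms, was lower by 0.44. Of the 8 partners and lipoylation genes of 2-oxoacid dehydrogenases, 6 were tested, with a median of 0.03. Of these, 3 were higher (50%) and 3 lower (50%), beside 30.5% and 40% of all genes. *Lias*, which makes the lipoyl group that DLST carries, was higher by 0.45 (SE 0.08, adjusted p = 0.00189), and *Lipt1*, which transfers it, was lower by 0.77 (SE 0.19, adjusted p = 0.00983).

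The other 2-hydroxyglutarate enzymes numbered 6, with a median of -0.12. Of these, 2 were higher (33.3%) and 3 lower (50%), beside 30.5% and 40% of all genes. *Adhfe1*, a mitochondrial transhydrogenase that makes D-2-hydroxyglutarate from alpha-ketoglutarate, read -1.47, -1.58 and -1.70 in WT and -0.95, -0.99 and -1.04 in IG27 arrays, a rise of 0.59 (SE 0.07, adjusted p = 4.33e-04), and a dimmer probe gave 0.63. *Mdh2*, the mitochondrial malate dehydrogenase, which can form L-2-hydroxyglutarate as a side product, was lower by 0.37 (SE 0.07, adjusted p = 0.00386). *Phgdh*, the serine synthesis enzyme that can also make D-2-hydroxyglutarate, read 5.10, 6.003 and 6.07 in WT and 5.79, 5.72 and 5.67 in IG27 arrays, where WT replicate 1 stood apart from the other WT arrays, and it was not called (-0.00, SE 0.26, adjusted p = 0.998). Without WT replicate 1 *Phgdh* was called lower by 0.31 (SE 0.07, adjusted p = 0.00827), which made the count of lower genes 4.

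Of the 13 glutamate-linked makers of alpha-ketoglutarate, 12 were tested, with a median of 0.38. Of these, 5 were higher (41.7%) and 3 lower (25%), beside 30.5% and 40% of all genes. *Bcat1*, the cytosolic branched-chain aminotransferase, which uses alpha-ketoglutarate to make glutamate in one direction, read -1.84, -1.99 and -1.78 in WT and 3.09, 3.08 and 2.96 in IG27 arrays, a rise of 4.92 (SE 0.07, adjusted p = 1.07e-07). *Glud1*, the mitochondrial glutamate dehydrogenase, which makes alpha-ketoglutarate from glutamate, read 4.72, 4.76 and 4.48 in WT and 3.65, 3.61 and 3.65 in IG27 arrays, a difference of -1.02 (SE 0.08, adjusted p = 7.01e-05), and its dimmer probe gave -1.05. Of the 6 mitochondrial carriers, 4 were tested, with 2 lower and none higher, beside 40% and 30.5% of all genes, and a median of -0.24. The count of higher genes was also 0 at an unadjusted p under 0.05 (limma), which 10852 of all 14894 genes reached in either direction. The 2 lower carriers were *Slc25a12*, which exchanges aspartate for glutamate and was lower by 1.34 (SE 0.06, adjusted p = 5.14e-06), and *Slc25a11*, the alpha-ketoglutarate and malate carrier, lower by 0.46.

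Because IDH1 and IDH2 yield NADPH, a list of other NADPH makers was counted too. It also holds enzymes that mainly use NAD, such as ME2. Of 12 genes 11 were tested, with none higher (beside 30.5% of all genes), 8 lower (beside 40% of all genes) and a median of -0.45. The count of higher genes was also 0 at an unadjusted p under 0.05 (limma). The largest fall was that of *Aldh1l1*, which oxidizes formyl-tetrahydrofolate with NADP, at -1.72 (SE 0.35, adjusted p = 0.00485), with -2.14, -3.25 and -3.54 in IG27 arrays against -1.28 to -1.23 in WT arrays. The IG27 arrays of this gene differed widely among themselves. The malic enzymes *Me1*, *Me2* and *Me3* were all called lower, by 0.41, 0.50 and 1.39. The count of 0 higher genes became 1 with quantile normalization and 3 relative to the chromosome medians.

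The alpha-ketoglutarate-dependent dioxygenases, which use what these enzymes make, numbered 58. Of these 56 were tested, with 20 higher, 15 lower and a median of 0.13. *Bbox1*, among the higher genes, passed the filter through the IG27 arrays alone. With genes required to be well above background on every complete array, the counts were 19 higher and 16 lower. *P3h3*, a collagen prolyl hydroxylase family member, read -4.86, -5.01 and -5.01 in WT and 0.34, 0.52 and 0.55 in IG27 arrays, a rise of 5.43 (SE 0.08, adjusted p = 9.87e-08). It was read by 1 probe, and its WT values lay near the lowest signals well above background on those arrays, -5.77, -5.53 and -6.01. *P4htm*, a transmembrane prolyl hydroxylase, read 0.92, 0.93 and 0.81 in WT and -1.38, -1.28 and -1.29 in IG27 arrays, a difference of -2.20 (SE 0.06, adjusted p = 5.61e-07). The list moved in both directions, with 35.7% of its tested genes higher and 26.8% lower beside 30.5% and 40% of all genes. The counts were 26 higher and 15 lower with quantile normalization, and 17 higher and 21 lower with the median of the array.

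**Figure D4:**
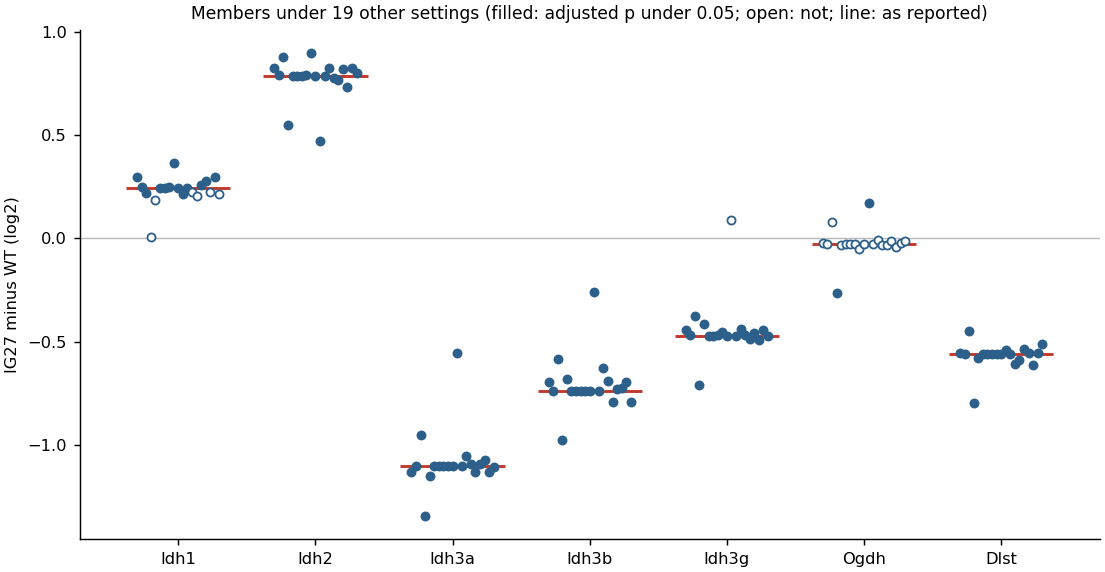
Log2 difference, IG27 minus WT, of the 7 tested genes under the 19 alternative settings, each a point (filled where the adjusted p was under 0.05, open where not), with the reported value as a red line. *Idh2*, *Idh3a*, *Idh3b* and *Dlst* stay on their side of 0 with filled points throughout, *Idh1* has 6 open points, *Idh3g* has 1 point above 0, which is relative to its chromosome, and *Ogdh* lies on both sides of 0.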

How the data were processed

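RNA from 3 WT and 3 IG27 samples was labeled with Cy3 and hybridized to 6 arrays of 1 Agilent mouse slide. The RNA kit differs between the labels and the study's methods. The authors read the slide with Feature Extraction, version 10.7.3.1 per the file headers and 9.1 per the submitters' processing notes. The deposited processed signal is a linear intensity. The value table that was deposited with it equaled the scanner output for all 56305 single-spot probes of the complete arrays (tolerance 1e-04), except that the columns of WT replicates 2 and 3 held each other's values. The samples of the scanner output were used. The scanner output of IG27 replicate 2 held 285 of 62976 spots, so its values came from the table, with no flags for background.

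Spots flagged as outliers were left out (107 to 210 per complete array), no spot was saturated, and log2 values were set relative to the 75th percentile of each array. Median signals were 55.4 to 77.6 over a local background of 29.0 to 34.0, and precision is limited by having 3 arrays per group. Accessions gave a gene for 32989 of 56605 probes, from a RefSeq table (GRCm38.p6, used for names, chromosomes and neighbors, since the arrays were designed on another build). The brightest probe stood for a gene. Differences were tested with limma 3.58.1 in R 4.3.3 (two-sided tests from eBayes after lmFit, without a block, Benjamini-Hochberg adjustment over all 14894 genes, threshold 0.05), after the moderated t-tests of the study's methods. Probes were tested in a fit of their own, with adjustment over 21891 probes. The fit was tested on simulated data. Same-numbered arrays deviated from their group means with correlations of 0.01, 0.04 and 0.08, so the numbers do not pair the arrays.

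The genes and lists were chosen with earlier results of these data known. Named genes were the 8 members, the largest rise and fall among the called genes of each list, the genes *Adhfe1*, *Phgdh*, *Dld* and *Mrps36*, and the 3 genes nearest in profile to *Idh1*, *Idh2*, *Idh3a* and *Ogdh*. Of the genes that this rule names, 2 are not reported here. The neighbors, *Cs*, *Suclg1*, *Slc25a11*, *Bbox1* and the malic enzymes were chosen after their values were seen. The alternatives were other sources, scalings, background corrections, filters, probe rules and spread models, chromosome medians, replicate number and slide row as blocks, and each array left out.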

Additional observations from a re-analysis of the deposited data

How the results depend on the processing

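Of the 7 tested genes, *Idh2*, *Idh3a*, *Idh3b* and *Dlst* kept their direction and their call under all 19 alternatives, 1 of which, the 5 complete arrays, is the same as leaving out IG27 replicate 2. *Idh3a* ranged from -1.34 to -0.55 and *Idh3b* from -0.98 to -0.26, the smallest falls being those relative to the chromosome median. Relative to the median level of the chromosome on each array *Idh3g* turned to 0.091 and *Ogdh* to 0.17, and *Ogdh* was 0.080 with quantile normalization. With the median of the array in place of the 75th percentile, all genes shifted to a median of -0.31, *Ogdh* was called lower at -0.27 and *Idh1* lost its call at 0.0061. *Idh1* also lost it with normexp on the median signal of the 5 complete arrays (0.18), which changed background correction, signal and arrays together, and with slide row as a block (0.22), and the number of members called higher was 1 in these 3 settings. WT replicate 2 alone shares its slide row with the IG27 arrays, so this block compares them with 1 WT array, and it called 8943 genes. With single arrays left out, the number called higher was 1 to 2, *Idh1* ranged from 0.21 to 0.30, and 9796 to 10140 of all genes were called against 10498. With replicate number as a block 10306 genes were called and no call of the 7 genes changed, although the numbers do not pair the arrays; *Idh1* then had an adjusted p of 0.0373. Of 266 counts over the 7 lists under alternatives 13 moved beyond 1.5 times, and of 120 pair differences 7 moved by more than the spread between arrays, none with a turned sign. Signal over background limits *D2hgdh*, and IG27 replicate 2 has no background flags.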
